A study of Homo sapiens with 15 samples.

Results

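Splicing factor and heterogeneous nuclear ribonucleoprotein (hnRNP) genes were followed on arrays of A549 cells in which 1 of 5 miRNAs had been overexpressed or suppressed. A549 is a human lung adenocarcinoma line. Probes were taken whose gene name on the array begins with HNRP, HNRNP, SFRS, SNRP, SF3A, SF3B or PRPF, which gave 143 probes of 75 gene names among 41000 probes. They comprised 56 probes of 23 hnRNP genes, 30 probes of 17 SFRS genes, 21 probes of 13 SNRP genes, 16 probes of 9 SF3A and SF3B genes and 20 probes of 13 PRPF genes. Probes were picked by name. The name families, and HNRPA3 on the miR-181d arrays in particular, were chosen with earlier results of these data known. The HNRPA3 values for miR-181d are thus not an unselected result. Of the 143 probes, 142 passed the signal filter, as did 31357 probes of the whole array. The filter asked for a well-above-background flag in Cy5 or in Cy3 on 3 or more arrays. The probe left out was HNRNPG-T A_23_P61967 (now RBMXL2).

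Each of the 15 dual-color arrays compared cells given 20 nM of a synthetic miRNA (overexpressed, Cy5) with cells given 20 nM of a locked nucleic acid antagomir against the same miRNA (suppressed, Cy3), with RNA taken 24 h after transfection. There were 3 arrays for each miRNA, which was miR-766, miR-629*, miR-574-3p, miR-565 or miR-181d. All cells on the arrays carried an oligonucleotide, no mock-transfected cells were hybridized, and the dyes were never swapped, so the dye and the treatment cannot be told apart in a ratio. Nothing in the labels says whether the 3 arrays of a miRNA came from separate cultures, so the p-values measure only the spread between arrays. A negative log2 ratio means a lower signal in the cells with the synthetic miRNA than in the cells with the antagomir. A probe was called when its Benjamini-Hochberg adjusted p in limma was under 0.05. To set a dye effect shared by all arrays aside, each miRNA's ratio was also compared with the mean of the other 4, below called the difference from the other miRNAs.

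Introns are removed from pre-mRNA by the spliceosome, which is built from small nuclear ribonucleoproteins (snRNPs). The SNRP genes encode their proteins, among them the Sm proteins that form a ring around the small nuclear RNA, and SF3A and SF3B are parts of the U2 snRNP that hold the branch point. The PRPF genes encode later-acting spliceosome proteins. SR proteins (SFRS genes, now named SRSF) and hnRNPs bind pre-mRNA and influence which sites are used, and many of these genes control their own mRNA level through splicing. The protein-coding genes of the splicing machinery are expressed in essentially all human cells.

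The sequences of the miRNAs are given first because each comparison is about 1 of them. The mature sequences from RefSeq (GRCh38.p14) follow, 5′ to 3′, with the seed, bases 2 to 8, in capitals; hsa-miR-629-3p is the present name of miR-629*, and the 3 seeds differ from each other. miR-565 and miR-766 are named only.
miR-181d-5p: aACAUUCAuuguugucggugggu
miR-574-3p: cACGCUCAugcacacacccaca
miR-629-3p: gUUCUCCCaacguaagcccagc
The reverse complement of the miR-181d seed, TGAATGT, lay in 0 of the 143 probe sequences and in 0.893% of all probes on the array. TGAGCGT, for miR-574-3p, lay in 0 of the 143 and in 0.132% of all probes. GGGAGAA, for miR-629*, lay in 1 of the 143 (0.699%) and in 0.654% of all probes. The probes are short stretches of each transcript, read here on the sense strand, so these counts say nothing about the rest of the mRNA.

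Of all probes, 68.1 to 75.5% were well above background in Cy5 and 68.8 to 73.0% in Cy3. All 8 genes of the A549 marker list, keratins among them, had a probe well above background on every array. Of the endothelial markers, PECAM1 and CDH5 were not well above background on any array, while a VWF probe was on 15 arrays in Cy5 and 9 in Cy3, PTPRC of the leukocyte list was not either, and CD14 and 1 CD3E probe were on all 15, as was COL1A1 of the fibroblast list. Of the genes deleted in A549, CDKN2A and MTAP each had 1 probe well above background on all 15 arrays and their other probes on none, and CDKN2B had a probe so on 2 arrays in Cy5. Replicate 1 of miR-565 stood apart: 14.6% of the tested probes had a ratio under 0.5 there, against 0.456 to 5.33% on the other 14 arrays. Calls of splicing factor and hnRNP probes described here that were lost without it are named as such. The arrays lay on 4 slides, 3 of which held all 3 arrays of a miRNA, and miR-766 had a slide to itself.

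Called splicing factor and hnRNP probes were lower with the synthetic miRNA more often than higher for all 5 miRNAs, and the lower calls made up a larger share than on the array as a whole for all 5. For miR-181d, 14 probes (9.86%) were lower and 10 (7.04%) higher, where 2.8% and 3.51% of all tested probes were. For miR-565 the counts were 16 (11.3%) lower and 4 (2.82%) higher, against 4.44% and 8.48%. For miR-574-3p, 11 (7.75%) were lower and 2 (1.41%) higher, against 2.59% and 2.78%. For miR-629*, 14 (9.86%) were lower and 11 (7.75%) higher, against 4.4% and 5.81%. For miR-766, 5 (3.52%) were lower and 2 (1.41%) higher, against 0.711% and 1.53%. Higher calls were thus more frequent than in the background for miR-181d and miR-629* and less frequent for miR-565 and miR-574-3p, while for miR-766 they were near it. These shares were not tested against each other. Without replicate 1 of miR-565, lower calls no longer outnumbered higher calls for miR-181d, with 29 lower and 39 higher. The 2 counts were close for miR-629* (32 and 31) and miR-766 (21 and 20), while miR-565 had 23 and 15 and miR-574-3p 38 and 17. The shares of all tested probes in each direction were not counted for this fit, so lower calls cannot be set against the background there. With the slide as a random block 7 (4.93%), 4 (2.82%), 5 (3.52%), 0 and 0 probes were called for the 5 miRNAs in the same order, against 2.23%, 0.367%, 0.915%, 0.0606% and 0% of all tested probes. The groups share the dye orientation, and whether the dye, the kind of oligonucleotide or the miRNA goes with the excess of lower calls was not tested.

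**Figure D1:**
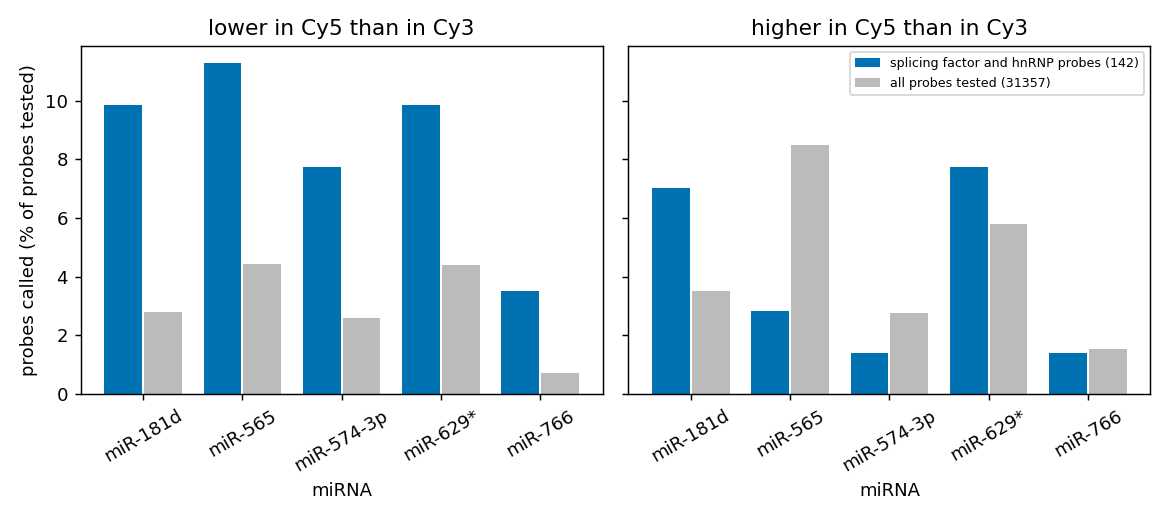
Share of tested probes called lower (left) or higher (right) in Cy5 than in Cy3, in percent, for each miRNA; blue bars are the 142 splicing factor and hnRNP probes and grey bars all 31357 probes tested. The blue bar is above the grey bar for lower calls at all 5 miRNAs, from 3.52 against 0.711% for miR-766 to 11.3 against 4.44% for miR-565.

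The typical probe moved little. The median log2 ratio over the 142 probes was 0.018 for miR-181d, -0.094 for miR-565, -0.040 for miR-574-3p, -0.0060 for miR-629* and -0.023 for miR-766, where the medians over all tested probes were 0.012, 0.030, 0.0066, 0.028 and 0.012. By class, miR-565 medians ran from -0.15 for the PRPF probes to 0.11 for the SF3A and SF3B probes. These 2 classes also stood at opposite ends on replicate 1 of miR-565, with medians of -0.37 and 0.41, while on replicates 2 and 3 of miR-565 both medians lay between -0.061 and 0.042. On that array 17 of the probes (12%) had a ratio under 0.5, a share no higher than that of all tested probes (14.6%). Without it, 68 (47.9%) of the 142 probes were called for miR-181d, 38 (26.8%) for miR-565, 55 (38.7%) for miR-574-3p, 63 (44.4%) for miR-629* and 41 (28.9%) for miR-766. The background shares then were 27.9%, 15.9%, 22.2%, 34.7% and 18.6%. Of the calls made with all 15 arrays, 24 of 24, 13 of 20, 13 of 13, 25 of 25 and 7 of 7 were made without it too.

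Under the thresholds of the study's methods (ratio under 0.5, p of at most 0.001, Cy3 signal of at least 20), applied to the limma values, 3 probes counted as suppressed for miR-181d and 0 for the other miRNAs. All 3 belong to HNRPA3. The shares of all tested probes past these thresholds were 0.0128% for miR-181d, 0.134% for miR-565, 0.0925% for miR-574-3p, 0.188% for miR-629* and 0.0128% for miR-766. No splicing factor or hnRNP probe was induced by the mirrored thresholds for any miRNA.

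HNRPA3 (now HNRNPA3) encodes an hnRNP of the A/B group, whose members bind mRNA and take part in splicing and mRNA transport. The gene has 9 probes on the plus strand of chromosome 2. Probe A_24_P488586 starts first, at chr2:177785764-177788556 (NCBI36, hg18), a span longer than the probe, so it crosses at least 1 intron. A_24_P488588 lies at chr2:177788537-177788596 and A_24_P269895 at chr2:177788575-177788634. These 3 probes carry the lowest miR-181d ratios of all 142, and they are not independent measurements, because neighbours share sequence. Their 60-base sequences from the array files follow, 5′ to 3′, with the stretches shared with a neighbour in capitals.
A_24_P488586: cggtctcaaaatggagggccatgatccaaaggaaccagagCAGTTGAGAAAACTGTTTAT
A_24_P488588: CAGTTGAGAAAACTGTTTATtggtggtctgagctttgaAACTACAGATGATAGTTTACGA
A_24_P269895: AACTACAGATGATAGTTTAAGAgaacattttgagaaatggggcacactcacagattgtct
The first pair shares 20 bases without a mismatch. The second pair shares 22 bases with 1 substitution, C20A, counted from 1 at the 5′ end of the shared stretch, from A_24_P488588 to A_24_P269895. The other 6 probes start 6510 to 10791 bases after the first.

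On the miR-181d arrays, A_24_P488588 had log2 ratios of -2.33, -0.71 and -0.46 in replicates 1, 2 and 3. A_24_P488586 had -2.26, -0.69 and -0.48. A_24_P269895 had -2.42, -0.67 and -0.37. In all 3 probes replicate 1 was far below replicates 2 and 3. The fitted log2 ratios were -1.17 (SE 0.25, adjusted p = 0.0178), -1.15 (SE 0.24, adjusted p = 0.0161) and -1.15 (SE 0.27, adjusted p = 0.0255). Without replicate 1, A_24_P488588 stood at -0.59 with an adjusted p of 0.0747, and the call was lost for the other 2 probes as well. A_24_P269895 also lost its call without replicate 2. With the slide as a random block A_24_P488588 stood at -0.99 (adjusted p = 0.206), and neither A_24_P488586 (adjusted p = 0.191) nor A_24_P269895 (adjusted p = 0.238) was called.

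Ratios of these probes were below 0 on the arrays of the other miRNAs too. For A_24_P488588 the 12 other arrays ran from -0.79 to -0.15, and the fitted ratios were -0.38 for miR-565, -0.22 for miR-574-3p, -0.45 for miR-629* and -0.52 for miR-766, none of them called. Replicates 2 and 3 of miR-181d lay inside that range. The difference of miR-181d from the other miRNAs was -0.77 (SE 0.28, adjusted p = 0.666), -0.75 for A_24_P488586 and -0.81 for A_24_P269895, and it did not pass in any of the 3.

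The channel signals place the gap. The Cy5 signal of A_24_P488588 was 1544, 7329 and 6937 in the 3 miR-181d replicates, and 4824 to 8466 on the other arrays. Its Cy3 signal was 7735, 12010 and 9563, and 6580 to 14250 on the other arrays. The low value was thus the Cy5 signal of replicate 1, below every other array, while its Cy3 signal lay inside the range. For A_24_P269895 the Cy5 signal was 641 in replicate 1, 3205 in replicate 2 and 3170 in replicate 3. Against the other miRNAs in the same dye, the Cy5 difference of A_24_P488588 was -0.74 (SE 0.33, adjusted p = 0.998) and the Cy3 difference 0.045 (SE 0.13, adjusted p = 0.861) on the log2 scale.

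On the miR-181d arrays, the 6 probes farther along HNRPA3 did not share the low ratios. On replicate 1 of miR-181d their mean log2 ratio was 0.066, against -2.34 for the first 3 probes, a gap of -2.40. The gap was -0.82 and -0.66 in replicates 2 and 3 of miR-181d and -0.93 to -0.16 on the 12 other arrays, so it was below 0 on all 15. Among these 6 probes, A_24_P706314 had low ratios elsewhere, at -1.235 on replicate 1 of miR-565 and -0.711 on replicate 3 of miR-629*. In Cy3 limma called it for miR-565 (-0.33, adjusted p = 0.00468) and miR-766 (0.30, adjusted p = 0.00752). A_24_P706312 had miR-181d ratios of 0.088, 0.096 and 0.232. The probe of highest signal, A_23_P17163, had miR-181d ratios of 0.10, 0.21 and 0.31. Its fitted ratio of 0.21 (SE 0.068, adjusted p = 0.0904) was not called, and its difference from the other miRNAs was 0.025 (SE 0.076, adjusted p = 0.943). In single dyes that difference was -0.013 (adjusted p = 0.998) in Cy5 and -0.022 (adjusted p = 0.776) in Cy3. Against the only other array on its slide, replicate 1 of miR-565, the difference was 0.41. Its neighbour A_32_P77502 was called higher, at 0.32 (SE 0.067, adjusted p = 0.0165) for miR-181d, 0.36 for miR-629* and 0.36 for miR-766, and stood at 0.22 to 0.44 on every array but replicate 1 of miR-565, where it was -0.040. Its miR-181d call was lost when any of the 3 arrays was left out, and its miR-629* and miR-766 calls when either of 2 arrays was.

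**Figure D2:**
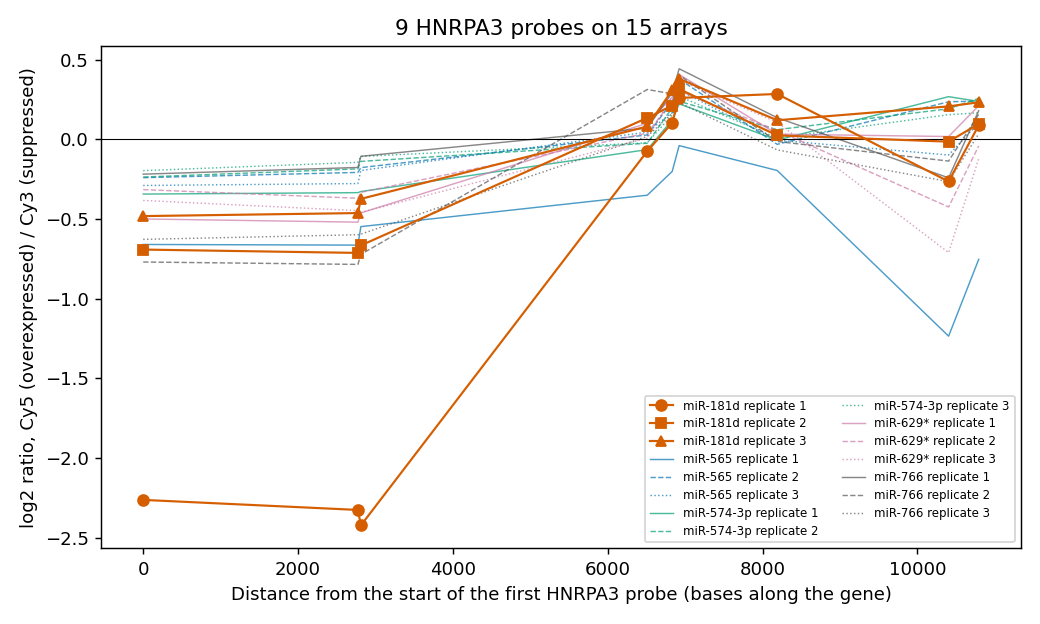
Log2 ratio (Cy5 over Cy3) of the 9 HNRPA3 probes on the 15 arrays, against the distance in bases of each probe's start from the start of the first probe; orange lines with circles, squares and triangles are replicates 1, 2 and 3 of miR-181d and thin lines the other arrays. Replicate 1 of miR-181d reaches -2.42 at the first 3 probes and returns to the other arrays from 6510 bases on.

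**Figure D3:**
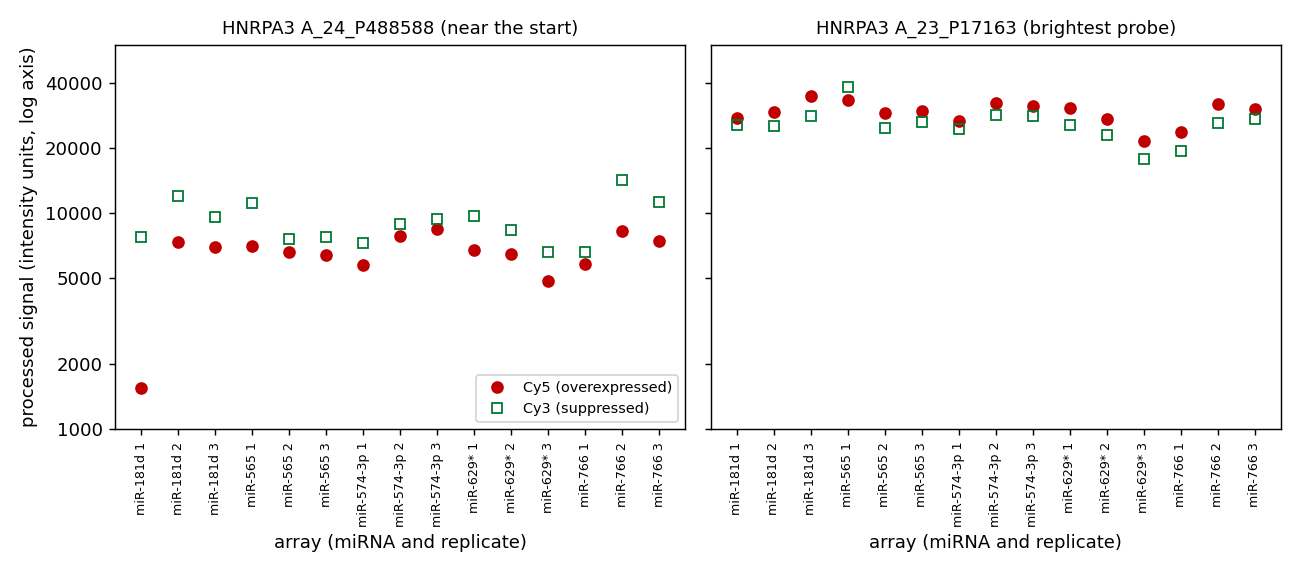
Processed signal (log axis, intensity units) of HNRPA3 probes A_24_P488588 (left) and A_23_P17163 (right) on each array, with Cy5 as filled circles and Cy3 as open squares. In the left panel the Cy5 signal of replicate 1 of miR-181d, 1544, lies below all other points, and in the right panel both dyes of that array lie among the others.

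HNRPA3 was the only gene of the 41 with several tested probes that had probes called in opposite directions for 1 miRNA. Several of its probes (A_23_P86660, A_32_P159347, A_24_P269895, A_23_P17163 and A_32_P77502) also list the accession of the pseudogene HNRNPA3P1 in the array files, so their signal can include its transcripts. Of the 3 low probes, A_24_P488586 and A_24_P488588 do not list it.

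Replicate 1 of miR-181d held other low values as well. There 8 of the 142 probes (5.63%) had a ratio under 0.5, where 3.53% of all tested probes did: beside the 3 of HNRPA3, HNRPA0 A_24_P371670 (-1.07), HNRPU A_24_P171110 (-1.30), HNRPUL2 A_24_P917449 (-1.03), SFRS12 A_24_P595877 (-1.18) and SFRS4 A_24_P148086 (-1.30). Replicates 2 and 3 had no such probe. HNRPU encodes a large nuclear-matrix hnRNP also known as scaffold attachment factor A. Its probe A_24_P171110 was called at -0.72 (SE 0.15, adjusted p = 0.0165), with arrays at -1.30, -0.51 and -0.36, and without replicate 1 or replicate 2 the call was lost. The 3 other HNRPU probes stood at 0.09 to 0.17, none called. SFRS4 showed the same split, with A_24_P148086 at -0.67 (adjusted p = 0.0275) and A_23_P126197 at 0.05, and the call of the first was lost without replicate 1 or 2.

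Higher with the synthetic miR-181d was PRPF19 A_23_P52978, at 1.18 (SE 0.30, adjusted p = 0.0357). PRPF19 encodes the ubiquitin ligase that gives its name to a complex of the active spliceosome. Its arrays gave 1.77, 1.19 and 0.59, and the other miRNAs' arrays ran from -1.02 to 1.27, so the groups overlapped and the call was lost when any of the 3 arrays was left out. HNRPH2, an hnRNP of the H/F group that binds guanine-rich stretches, was called at 0.58 (SE 0.11, adjusted p = 0.00974) for miR-181d and at 0.41 (adjusted p = 0.031) for miR-629*. Its ratios were above 0 on every array but replicate 1 of miR-565 (-0.30). The miR-181d call was lost without replicate 1 or 2, and the miR-629* call when any of its 3 arrays was left out.

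SNRPE, a protein of the Sm ring, was the 1 gene whose ratio differed from the other miRNAs. It has 1 probe, A_23_P126291. SNRPF, another protein of the ring, has 2 probes, at chr12:94779201-94783290 and chr12:94783282-94783957 (NCBI36, plus strand), whose sequences are shown because both were lower for miR-766. Capitals mark the 9 bases that the SNRPF probes share.
SNRPF A_23_P117068: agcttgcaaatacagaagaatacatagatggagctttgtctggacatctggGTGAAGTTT
SNRPF A_24_P504405: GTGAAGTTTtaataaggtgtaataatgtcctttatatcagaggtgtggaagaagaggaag

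The SNRPE log2 ratios on the miR-574-3p arrays were -0.54, -0.59 and -0.69. On the 12 other arrays they ran from 0.058 to 0.38, so all other arrays were above 0 and the groups did not overlap. The fitted ratio was -0.60 (SE 0.071, adjusted p = 0.000408) for miR-574-3p, and 0.15 for miR-181d, 0.26 for miR-565, 0.27 for miR-629* and 0.20 for miR-766, of which miR-565 (adjusted p = 0.0342) and miR-629* (adjusted p = 0.0321) were called. The miR-565 call was lost without replicate 2 or 3, and the miR-629* call when any of its 3 arrays was left out. The difference of miR-574-3p from the other miRNAs was -0.83 (SE 0.080, adjusted p = 0.000168), with 1.23% of all tested probes called in that comparison. Within slides the order was the same. On the slide shared with miR-565, replicates 1 and 2 of miR-574-3p had -0.54 and -0.59 where replicates 2 and 3 of miR-565 both had 0.36. On the slide shared with miR-629*, replicate 3 of miR-574-3p had -0.69 against 0.24 to 0.30.

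The SNRPE difference lay in the Cy3 channel, that of the cells with the antagomir. The Cy3 signal was 11580, 13490 and 13550 on the miR-574-3p arrays and 5169 to 8990 on the others, without overlap. The Cy5 signal was 7962, 8996 and 8426 on the miR-574-3p arrays and 6113 to 9556 on the others. After quantile normalization within each dye, the Cy3 difference was 0.88 (SE 0.048, adjusted p = 3.63e-07) on the log2 scale and the Cy5 difference 0.039 (SE 0.053, adjusted p = 0.981). SNRPE was thus higher in the cells with the miR-574-3p antagomir than in those with the other antagomirs, and no difference was detected between the cells with the synthetic miRNAs.

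SNRPF behaved alike for miR-766. Probe A_23_P117068 had ratios of -0.49, -0.47 and -0.72 and a fitted value of -0.56 (SE 0.084, adjusted p = 0.00586). Probe A_24_P504405 had -0.26, -0.25 and -0.49, with a fitted value of -0.33 (SE 0.068, adjusted p = 0.0272). The other arrays ran from -0.47 to 0.088 in the first and from -0.12 to 0.29 in the second, and in both the lowest of them was replicate 1 of miR-565, the only one to reach the miR-766 values of the first probe. The differences from the other miRNAs were -0.47 (SE 0.094, adjusted p = 0.322) and -0.46 (SE 0.077, adjusted p = 0.219), and passed only without replicate 1 of miR-565 (-0.52 and -0.49, each with an adjusted p of 0.00198). The Cy3 signal of A_24_P504405 was 11580, 15660 and 17540 on the miR-766 arrays and 6250 to 13610 on the others, so before normalization the groups overlapped. For miR-629* the second probe was called higher (0.23, adjusted p = 0.048), and lost that call when any of the 3 arrays was left out. In Cy3 the miR-766 differences were 0.50 (SE 0.037, adjusted p = 0.000129) and 0.58 (SE 0.069, adjusted p = 0.00175), and in Cy5 0.0084 (adjusted p = 0.982) and 0.11 (adjusted p = 0.936). miR-766 and its slide cannot be told apart. Without replicate 1 of miR-766 the ratio call of A_23_P117068 was lost, and A_24_P504405 lost its call when any of the 3 arrays was left out.

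HNRPH3, an hnRNP of the H/F group, had a probe of the same kind for miR-574-3p. A_23_P115824 had ratios of -0.45, -0.41 and -0.48 there and -0.084 to 0.20 elsewhere, except for -0.71 on replicate 1 of miR-565. Its fitted ratio was -0.44 (SE 0.11, adjusted p = 0.0286), called only with all 3 arrays in the fit. The Cy3 difference was 0.43 (SE 0.022, adjusted p = 2.15e-07) and the Cy5 difference 0.035 (adjusted p = 0.982). The other HNRPH3 probe, A_24_P338187, stood at -0.04 and was not called.

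**Figure D4:**
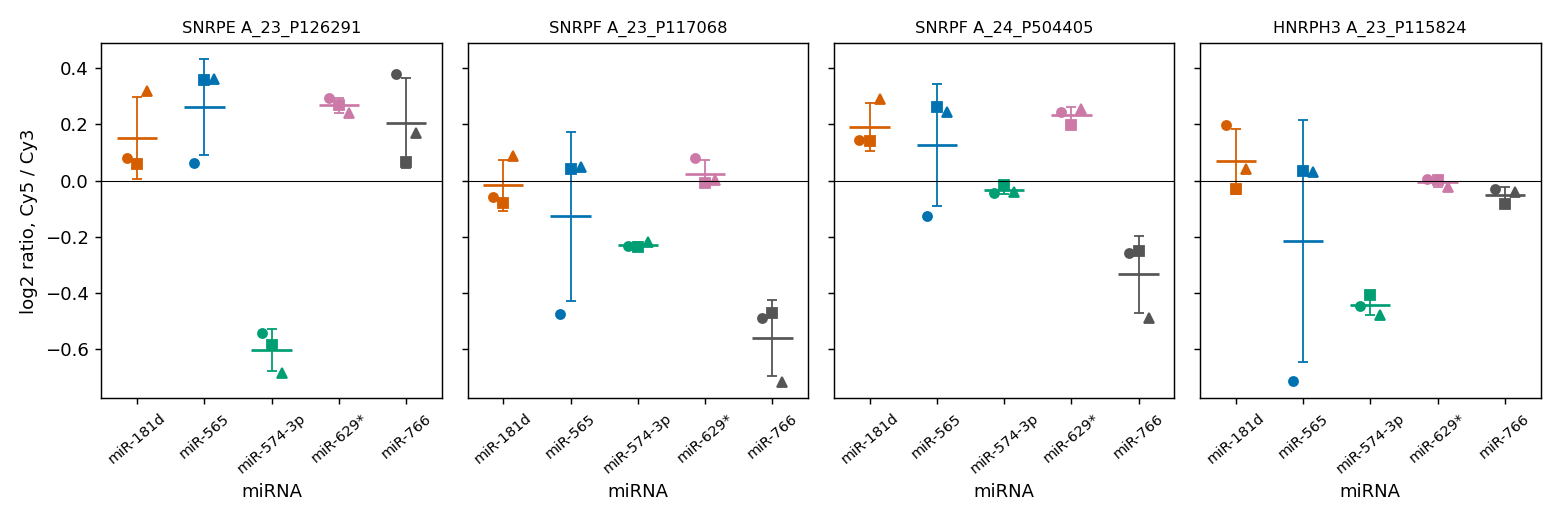
Log2 ratio (Cy5 over Cy3) of SNRPE, the 2 SNRPF probes and HNRPH3 A_23_P115824 by miRNA; circles, squares and triangles are replicates 1, 2 and 3, horizontal lines the mean and bars the SD of the 3 arrays. SNRPE lies at -0.69 to -0.54 for miR-574-3p and above 0 elsewhere, and both SNRPF probes are lowest for miR-766.

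Across all 142 probes, the comparison of single dyes with the other miRNAs gave calls in Cy3 and none in Cy5. In Cy3 there were 0 for miR-181d (35 at an unadjusted p under 0.05), 8 (5.63%) for miR-565, 12 (8.45%) for miR-574-3p, 3 (2.11%) for miR-629* and 5 (3.52%) for miR-766. The background shares were 1.24%, 1.97%, 8.69%, 0.845% and 3.64%, so the count for miR-574-3p and that for miR-766 were near those of the whole array. In Cy5 limma called 0 probes for each miRNA, with 13, 18, 3, 2 and 6 at an unadjusted p under 0.05. At an adjusted p under 0.05 the background there was 0% for miR-181d, miR-565, miR-574-3p and miR-629* and 0.258% for miR-766. Without replicate 1 of miR-565, Cy3 gave 0, 4 (2.82%), 10 (7.04%), 3 (2.11%) and 5 (3.52%), against 0.596%, 0.695%, 7.49%, 0.58% and 2.84% of all tested probes. Cy5 then gave 0 in each, against 0%, 0.00319%, 0.00319%, 0% and 0.392% of all tested probes at an adjusted p under 0.05. At an unadjusted p under 0.05 there were 26, 2, 6, 7 and 15 in Cy5. The share of all tested probes at an unadjusted p was not counted, so the unadjusted counts cannot be set against the whole array.

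The 12 Cy3 calls for miR-574-3p were 5 higher and 7 lower. Higher beside SNRPE and HNRPH3 were SNRPD2, another Sm protein (0.26, SE 0.044, adjusted p = 0.00268), SFRS2IP (0.14) and SFRS15 (0.13). The SFRS2IP and SFRS15 calls were lost without replicate 1 of miR-565. Lower were SFRS12 (-0.46), HNRPUL1 at 2 probes (-0.36 and -0.23), SNRPA at all 3 of its probes (-0.22, -0.19 and -0.17) and SF3A1 A_23_P104676 (-0.12). SNRPA is the A protein of the U1 snRNP, and HNRPUL1 is a relative of HNRPU. The comparisons are not independent, since each miRNA's baseline holds the other 4: the Cy3 calls of SNRPE for miR-565 (-0.32) and miR-629* (-0.27) are set against a mean that includes the high miR-574-3p arrays.

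HNRPUL1 A_24_P108351 moved in Cy3 for 3 miRNAs, with differences of 0.37 for miR-565, -0.36 for miR-574-3p and -0.32 for miR-766. Its ratios were 0.30 to 0.36 on the miR-574-3p arrays, 0.25 to 0.38 on the miR-766 arrays and -0.15 to 0.10 on those of miR-181d and miR-629*. On the miR-565 arrays they were 0.48, -0.22 and -0.20, replicate 1 having the opposite sign. The ratio was not called for any miRNA with all 15 arrays. Without replicate 1 of miR-565 it was called for miR-181d (-0.12, adjusted p = 0.026), miR-565 (-0.21, adjusted p = 0.00648), miR-574-3p (0.33, adjusted p = 5.92e-05) and miR-766 (0.32, adjusted p = 0.00018). The probe A_23_P502612 of the same gene had fitted ratios between -0.05 and 0.03. The remaining probe, A_24_P376294, had ratios of 0.08 to 0.28 on the miR-574-3p arrays and 0.11 to 0.29 on the miR-766 arrays. Its ratio was not called with all 15 arrays. In Cy3 it was called for miR-565 (0.22) and miR-574-3p (-0.23), the first call being lost without replicate 1 of miR-565.

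Differences of the ratio from the other miRNAs were called for 0 of the 142 probes for miR-181d (30 at an unadjusted p under 0.05), 0 for miR-565 (26), 1 for miR-574-3p, 0 for miR-629* (12) and 0 for miR-766 (7) in limma. With the slide as a random block 41 (28.9%) were called for miR-181d, against 16.1% of all tested probes. The miR-181d slide held only 1 array of another miRNA, replicate 1 of miR-565, which stood apart. How far that array weighs in the 41 calls was not tested. Without the block the share of all tested probes called was 0%, 0.105%, 1.23%, 0.0542% and 0.00638%. No such share was counted at an unadjusted p. Without replicate 1 of miR-565 the counts were 3, 1, 8, 0 and 3, against 0.456%, 0.198%, 5.58%, 0.258% and 0.112%. For miR-574-3p the 8 were SNRPE (-0.85), HNRPH3 (-0.45), SNRPD2 (-0.30), HNRPUL1 (0.32), the 3 SNRPA probes (0.15 to 0.19) and SF3A1 (0.10). All 8 were also called in Cy3 with 15 arrays, in the opposite direction. For miR-181d they were HNRPF (0.20), HNRPD (0.18) and HNRPUL1 (-0.23), chosen after their values were seen, as were the other genes named in this paragraph apart from SNRPE and HNRPH3.

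Some probes had the same sign for every miRNA, but how many of all tested probes did so was not counted. The following 3 were called lower for all 5: HNRPC A_24_P178423, at -0.45 to -0.31, HNRPCL1 A_24_P767422, at -0.46 to -0.36, and SNRPB A_23_P154675, at -0.51 to -0.31. On single arrays they ran from -0.47 to -0.24, from -0.54 to -0.27 and from -0.56 to -0.28. With the slide as a random block all 3 remained called for miR-181d, miR-565 and miR-574-3p and were not called for miR-629* (adjusted p = 0.122 to 0.142) or miR-766 (adjusted p = 1). Under that block 0% of all tested probes were called for miR-766, which had a slide to itself, and 0.0606% for miR-629*. These losses are thus not particular to the 3 probes. The miR-766 calls of HNRPC and HNRPCL1 were also lost without replicate 1 of miR-766. HNRPC encodes the hnRNP C proteins that package nascent transcripts, and SNRPB the Sm B proteins. HNRPCL1 is a near copy of HNRPC, and the array file places the HNRPC probe on chromosome 2 although its 2 other HNRPC probes lie on chromosome 14, so these signals cannot be assigned to 1 gene with certainty. Those 2 other probes stood at -0.30 to -0.07 (A_23_P163006, called for miR-565) and 0.01 to 0.23 (A_32_P142028, not called). SNRPB has 1 probe, and SNRPN, which encodes a near-identical protein, had one at -0.19 to 0.00 that was not called.

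SNRP70 A_23_P4909, a probe of the U1 snRNP 70K protein, was called for 3 miRNAs: miR-181d (-0.64, SE 0.10, adjusted p = 0.00528), miR-629* (-0.64, adjusted p = 0.00419) and miR-574-3p (-0.49, adjusted p = 0.016). It stood at -0.73 to -0.19 on all arrays but replicate 1 of miR-565, which had 0.12. The miR-574-3p call was lost when any of its 3 arrays was left out. The gene's other probe, A_23_P4902, had fitted ratios of -0.26 to -0.10 and was called lower for miR-565 (adjusted p = 0.0287) and miR-629* (adjusted p = 0.0125). The first of these calls was lost without replicate 1 of miR-565 (-0.16, adjusted p = 0.0851) and the second without replicate 1 or 3 of miR-629*. The miR-181d call of A_23_P4909 was lost without replicate 1. SFRS2 A_23_P77776 was higher for 4 miRNAs, at 0.32 to 0.41, and stood at 0.10 for miR-565, where replicate 1 had -0.29 and replicates 2 and 3 had 0.35 and 0.25. Its 4 calls were each lost when any of the 3 arrays was left out, and without replicate 1 of miR-565 it was called for miR-565 too (0.30, adjusted p = 0.00197). SFRS2 encodes SC35 (SRSF2), an SR protein of nuclear speckles that limits its own mRNA through splicing. In all, 54 probes were called for 1 or more miRNAs and 11 for 3 or more. Over the 142 probes, 11 were below 0 and 3 above 0 on all 15 arrays. The matching counts over all tested probes were not made. Whether recurrent calls or a constant sign are more frequent among splicing factor and hnRNP probes was thus not tested.

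**Figure D5:**
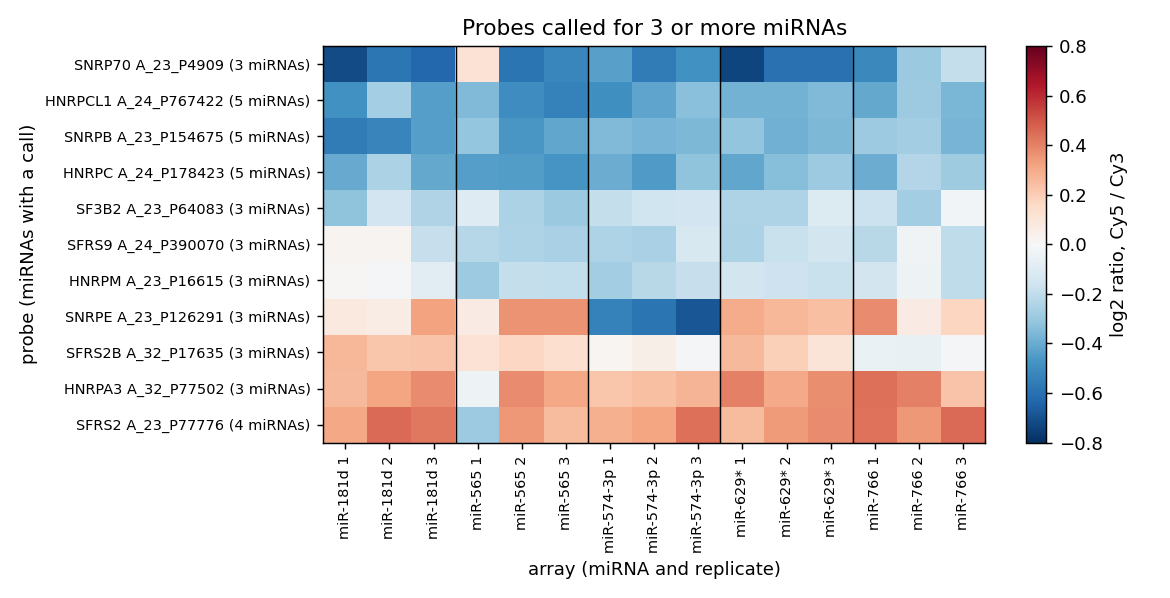
Log2 ratio (Cy5 over Cy3, color scale from -0.8 to 0.8) of the 11 probes called for 3 or more miRNAs, one row a probe, on the 15 arrays. HNRPC, HNRPCL1 and SNRPB are below 0 on every array, SNRPE changes sign on the miR-574-3p arrays, and replicate 1 of miR-565 departs from its neighbors in SNRP70 and SFRS2.

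Among the remaining calls, the lowest for miR-565 were PRPF18 A_23_P418046 (-1.03, SE 0.25, adjusted p = 0.0236), PRPF4B A_23_P168240 (-0.75, adjusted p = 0.0452) and SFRS1 A_23_P49521 (-0.53, adjusted p = 0.0198). PRPF18 acts in the later step of splicing, PRPF4B is a kinase of spliceosome proteins, and SFRS1 is the SR protein SRSF1. On replicate 1 they had -2.07, -1.82 and -0.95, and on replicates 2 and 3 -0.52 to -0.50, -0.30 to -0.14 and -0.39 to -0.25. All 3 calls were lost without replicate 1. SFRS1 A_23_P49517 was also called lower (-0.35, adjusted p = 0.0056). It kept that call without each array in turn but not with the slide as a random block (adjusted p = 0.0743). The other probes of these genes were not called. On replicates 1, 2 and 3, SFRS1 A_24_P921933 had -0.35, 0.48 and 0.34, and PRPF18 A_23_P127195 had -1.42, 0.02 and 0.02. PRPF4B A_24_P941787 had -1.95, 0.37 and 0.22, and A_24_P403168 -1.37, -0.09 and -0.06. PRPF18 A_23_P418046 was well above background in both dyes on 2 of the 3 arrays. SNRPG, of the Sm ring, was higher for miR-565 at 0.29 (SE 0.056, adjusted p = 0.00949), and was called without each of the 3 arrays in turn but not with the slide as a random block (adjusted p = 0.159). SF3A1 A_24_P250614 was higher at 0.44 (adjusted p = 0.0238) and lost its call without replicate 1.

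For miR-574-3p, HNRPUL2 A_23_P409626 was lower (-0.54, adjusted p = 0.0483) and SF3B3 A_23_P135914, a part of the SF3B complex, higher (0.26, adjusted p = 0.0493); both calls were lost when any of the 3 arrays was left out. For miR-629*, HNRPA0 A_24_P371670 was lower (-0.54, adjusted p = 0.026), as it was for miR-181d (-0.57, adjusted p = 0.0275; -0.32 and not called without replicate 1), and SFRS10 (TRA2B, 0.34, adjusted p = 0.0277) and HNRPLL A_24_P916378 (0.33, adjusted p = 0.0318) were higher. The 3 miR-629* calls were lost when any of the 3 arrays was left out. The other HNRPA0 probe, A_23_P252449, stood at 0.31 for miR-181d and -0.25 for miR-629*, neither called. The probe of highest signal in each class was HNRPA1 A_32_P42197, SFRS3 A_23_P413761, SNRPD2 A_24_P74160, SF3B5 A_23_P19576 and PRPF31 A_23_P142018. Their fitted ratios lay between -0.34 and 0.08, with calls for SNRPD2 with miR-574-3p (-0.29, adjusted p = 0.0158) and PRPF31 with miR-629* (-0.17, adjusted p = 0.0182), both lost when any of the 3 arrays was left out.

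Genes of the splicing machinery outside these name families were set beside them from a list of 113 genes on the array, with 203 probes, of which 199 were tested. There 10 probes (5.03%) were lower and 10 (5.03%) higher for miR-181d, against 2.8% and 3.51% of all tested probes. For miR-565 the counts were 13 (6.53%) and 17 (8.54%), against 4.44% and 8.48%. Those for miR-574-3p were 12 (6.03%) and 5 (2.51%), against 2.59% and 2.78%. With miR-629* there were 14 (7.04%) and 12 (6.03%), against 4.4% and 5.81%, and with miR-766 4 (2.01%) and 4 (2.01%), against 0.711% and 1.53%. These shares were not tested against each other. RNPS1, an SR-related protein of the exon junction complex, was the lowest call for miR-181d (-0.56), and TAF15, an RNA-binding protein, was the highest for miR-181d (0.78) and the lowest for miR-629* (-1.14) and miR-766 (-1.32). SRRM1 was the lowest for miR-574-3p (-0.50) and an EWSR1 probe for miR-565 (-0.60). The highest were RBM35B (now ESRP2) for miR-565 (0.52), SYNCRIP for miR-574-3p (0.38), QKI for miR-629* (0.53) and RBMX for miR-766 (0.39). Whether the calls of this list hold without single arrays was not checked. In the difference from the other miRNAs, 2 of the 199 were called, both for miR-574-3p: RBM4 (-0.35, adjusted p = 0.0285) and TRA2A (-0.28, adjusted p = 0.0405). Of all tested probes, 1.23% were called in that comparison for miR-574-3p.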

How the data were processed

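RNA of A549 cells was measured on 15 whole human genome oligonucleotide arrays of 41000 probes. The authors labeled cells with the synthetic miRNA with Cy5 and cells with the antagomir with Cy3 and scanned each array, and Agilent Feature Extraction 9.5.3 gave the values (per the labels and file headers). The deposited intensity columns hold processed signals, already background-subtracted and dye-normalized by the authors' software. The deposited log10 ratio is that of Cy5 over Cy3, and the series table repeats it (largest difference 0). The deposited score columns are flags for outliers and for signals well above background. Probe positions are those of the files (NCBI36, hg18), and all 143 probes were matched to a current RefSeq symbol (GRCh38.p14).

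From these, log2 ratios of the processed signals were fitted in limma 3.58.1 (R 4.3.3), 1 model over 15 arrays with an intensity trend, after averaging spots of 1 probe and leaving out flagged spots (0 of the members). The Benjamini-Hochberg adjustment ran over 31357 probes. Single dyes were compared after quantile normalization within the dye, with a floor of 1. The sequence of 1 probe is not reported here. The methods' Rosetta Resolver error model was not rerun. The fits were tested on simulated data. The number of arrays limits the precision, and no spot of the 15 arrays was saturated.

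The members and gene lists were chosen with earlier results of these data known. Named were all HNRPA3 probes; for each miRNA, among probes called with 1 sign on its 3 arrays, the 4 lowest and 4 highest ratios; the 3 lowest and 3 highest called differences; other probes of those genes; and the probe of highest signal in each class. The replicate numbers of different miRNAs did not pair the arrays (correlations of deviations from -0.395 to 0.510 over 30 pairs of the same number). Alternatives were another background correction, centring, the series table, slide and replicate blocks, no trend, other filters and leaving out arrays.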

Additional observations from a re-analysis of the deposited data

Results flagged for a closer look

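The log2 ratio of SNRPE (A_23_P126291) for miR-574-3p differed from the mean of the other 4 miRNAs by -0.825 (SE 0.080, adjusted p = 0.000168 in limma), with the 3 miR-574-3p arrays below 0 and the 12 other arrays above 0. This was the difference between miRNAs that passed the test among the 142 probes with all 15 arrays in the fit.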

How the results depend on the processing

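Counts of called splicing factor and hnRNP probes depended on the slide, on single arrays and, in Cy3, on the scaling. Among the alternatives, shares of all tested probes were counted only without replicate 1 of miR-565 and for the slide block in ratios and their differences. Counts under the other alternatives cannot be set against the whole array. In the ratio, with the slide as a random block (correlation 0.626) 7 probes were called for miR-181d, 4 for miR-565, 5 for miR-574-3p, 0 for miR-629* and 0 for miR-766, in place of 24, 20, 13, 25 and 7. Without an intensity trend the counts were 12 for miR-181d, 6 for miR-574-3p, 12 for miR-629* and 4 for miR-766. Leaving out each array of a miRNA in turn gave 3 to 12 for miR-181d, 26 to 38 for miR-565, 4 to 5 for miR-574-3p, 4 to 6 for miR-629* and 1 to 5 for miR-766. Without replicate 1 of miR-565, chosen after seeing the data, the counts were 68, 38, 55, 63 and 41. In the difference from the other miRNAs, the slide block gave 41 for miR-181d (16.1% of all tested probes) and 4 for miR-574-3p (1.32% of all), and leaving out replicate 1 of miR-565 gave 3 for miR-181d, 1 for miR-565 (0 to 1 over its 3 arrays), 8 for miR-574-3p and 3 for miR-766, in place of 0, 0, 1 and 0. The miR-181d slide held only 1 array of another miRNA, replicate 1 of miR-565.

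In Cy3 against the other miRNAs, median scaling gave 46 for miR-565 in place of 8, 7 for miR-574-3p in place of 12, 0 for miR-629* in place of 3 and 31 for miR-766 in place of 5, and the slide block gave 37 for miR-181d in place of 0, and 13, 12 and 40 for miR-565, miR-629* and miR-766. Leaving out each array of the miRNA gave 4 to 5, 6 to 8, 0 to 1 and 4 to 9, and leaving out replicate 1 of miR-565 gave 10 for miR-574-3p. These counts in single dyes were chosen after seeing the data. For median scaling and the slide block in single dyes, the share of all tested probes was not counted. In Cy5 every alternative gave 0.

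For HNRPA3, A_24_P488588 fell to -0.99 (adjusted p = 0.206) under the slide block and -0.59 without replicate 1 (range over its 3 arrays -1.52 to -0.59), and A_23_P17163 passed the test (0.21, adjusted p = 0.00192) without replicate 1 of miR-565. Leaving out each miR-181d array gave it 0.16 to 0.26. Its difference on the same slide was 0.41. The replicate block, used although the numbers did not pair the arrays, gave 19, 20, 11, 22 and 7 called ratios and 1 Cy3 call for miR-181d in place of 0. Among the 34 named pairs counted below, the calls lost under it were those of PRPF19, HNRPUL2, SF3B3 and SFRS2B (miR-565). Not every other call named in the text was followed under it. SNRPE for miR-574-3p passed under every alternative run. All 34 other named pairs of probe and miRNA kept their direction under every alternative, 29 lost the call under the slide block and 28 without 1 or more single arrays. Under the slide block 0% of all tested probes were called for miR-766 and 0.0606% for miR-629*. The cause was not tested.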
